A study of Mus musculus with 12 samples.

Results

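The comparison of GluN1Cre with GluN1 asked which cortical transcripts differed when Cre recombinase was added to mice with low Grin1. Its members were the gene models that the authors' Cuffdiff run tested between these groups: 18430 of the 31041 models in that table, and of 55276 tests over the 3 tables of the series. The series measured polyadenylated RNA of the frontal cortex in 12 male mice, of which 8 entered this comparison: 4 labelled GluN1, a Grin1 knockdown, and 4 labelled GluN1Cre, the knockdown with Cre rescue. The other 4 were labelled WT and served as the wild type. All 12 were F1 hybrids of C57Bl/6 and 129/SvlmJ, were 14 weeks old, and had been given tamoxifen for 2 weeks, starting at the age of 10 weeks (a gavage of 6 mg, then chow that supplied about 14 mg). Tamoxifen, a ligand of oestrogen receptors, is commonly used to switch on inducible forms of Cre. The labels name neither the promoter that drives Cre nor the cells it acts in. Cre was named in 1 group only, so an effect of Cre or of its activation and an effect of restored Grin1 cannot be told apart.

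NMDA receptors are glutamate-gated channels that pass calcium and couple synaptic activity to plasticity and gene expression. Every NMDA receptor contains the GluN1 subunit encoded by Grin1, joined by GluN2 or GluN3 subunits, so that less Grin1 limits the number of receptors whatever the other subunits do. In the cortex these receptors act in pyramidal cells and in inhibitory interneurons, and their calcium signal reaches neuronal nitric oxide synthase, CaM kinases and the immediate early genes.

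The tables hold 1 FPKM per group, a fragment count scaled for the length of the transcript and the size of the library, estimated by the authors over the 4 libraries of that group. No value per animal was analysed here, so no level below carries a spread between animals, depth is unknown, and the error behind each call is that of the authors' test. A model is said to have risen, fallen or been called where it passed the study's threshold in the authors' deposited table, p under 0.05 and q under 0.10. Folds are log2 of GluN1Cre over GluN1, recomputed from the FPKM values with no pseudocount. Markers of the labelled tissue were present: Tbr1, a transcription factor of cortical projection neurons, lay at 55.2 FPKM in GluN1 and 60.6 FPKM in GluN1Cre, and Fezf2 at 9.43 and 11.1 FPKM.

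Falls outnumbered rises. Of the 18430 tested models 127 were called (0.689%), 103 lower in GluN1Cre (0.559%) and 24 higher (0.13%). Most folds were small: among the 13893 models at or above a mean of 1 FPKM, the middle 50% lay between -0.06 and 0.04, 1% lay below -0.44 and 1% above 0.30. The median of these models was -0.0043 and 47.5% of folds were above 0. At that level 112 models were called (0.806%), 93 lower (0.669%) and 19 higher (0.137%), and the smallest called change was 0.28, or 1.21 times. An unadjusted Cuffdiff p under 0.05 was held by 519 models at that level (3.74%), 388 lower and 131 higher. The called falls had a median of -0.54 and the called rises a median of 0.64. The share called differed between expression levels: it was 0.331% below 1 FPKM, 1.15% at 1 to 5 FPKM, 0.552% at 5 to 20 FPKM, 0.731% at 20 to 100 FPKM and 1.15% at 100 FPKM or more. All 7 calls at 100 FPKM or more were falls. The smallest p in the authors' deposited table, 5e-05 (q = 0.0118), was shared by 78 of the 127 called models, and the largest q among the 127 was 0.0943. The calls rest on these deposited p-values. When p was computed instead from the deposited test statistic, read as a normal score, 15 models passed, 6 higher and 9 lower. Of these 7 were among the 127. Grin1 was not among the 15. Statistic and deposited p do not correspond under that reading: 1 unnamed model had a statistic of -2111 and a Cuffdiff p of 0.0261. The tables with WT held more calls: GluN1 against WT had 2.52% of its tested models called, 1.66% higher and 0.858% lower (2.67%, 1.7% and 0.97% at or above a mean of 1 FPKM). GluN1Cre against WT had 0.841%, 0.364% higher and 0.478% lower (0.969%, 0.398% and 0.571%). Of the 127 called models 11 carried no gene symbol, and 12 belonged to genes that were assembled into more than 1 tested model.

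**Figure D1:**
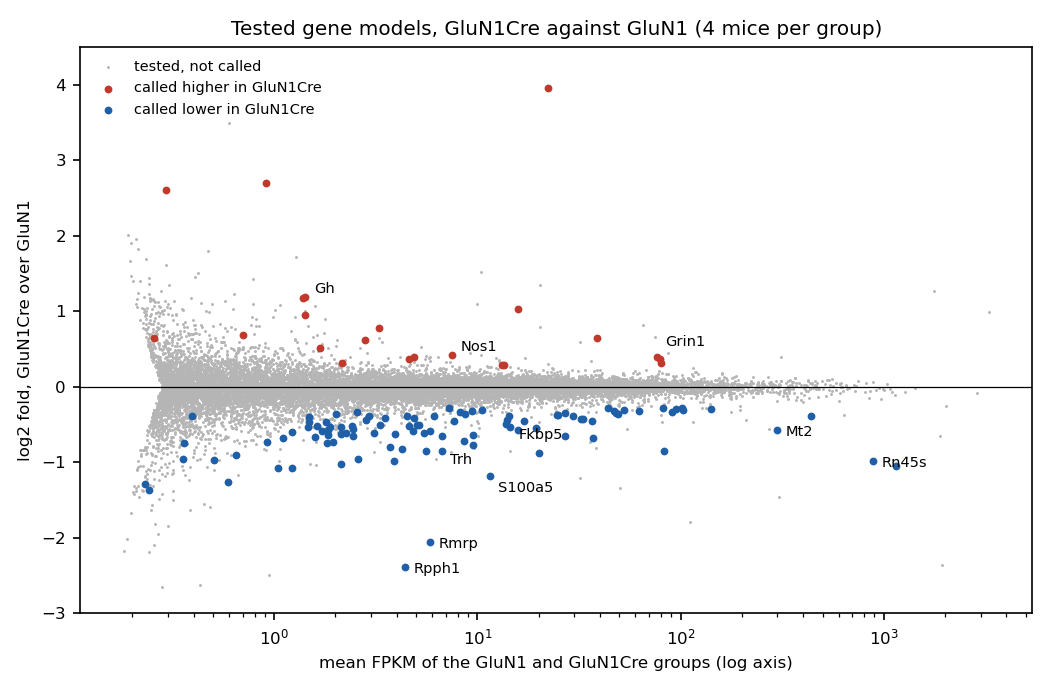
Each point is a tested gene model with its mean FPKM over the 2 groups (x axis, logarithmic) and its log2 fold of GluN1Cre over GluN1 (y axis); red points were called higher, blue points called lower and grey points were not called, and 3 called models listed at 0 FPKM in a group have no finite fold and are not drawn. Blue points outnumber red ones (103 against 24 called), and Rpph1 and Rmrp have the most negative folds of the called models drawn.

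Grin1 itself rose with Cre but stayed below the wild-type level. The protein-coding gene Grin1 (ENSMUSG00000026959) occupies bases 25291181 to 25319187 of chromosome 2, minus strand, in GENCODE M21 on GRCm38. It was at 65.7 FPKM in GluN1 and 86.7 FPKM in GluN1Cre, a log2 fold of 0.40 (q = 0.038 in the authors' deposited table). In the tables with wild type, which were normalised separately, GluN1 stood at 41% and GluN1Cre at 56.5% of the 138 FPKM of WT, and both were called lower. Those values place GluN1Cre 1.38 times above GluN1, beside 1.32 times in the direct comparison. The GluN1 level here was 1.16 times that of the table against WT, and the GluN1Cre level 1.11 times.

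The partner subunits of GluN1 were not called, and of the other glutamate receptor genes described here 1 was, the auxiliary subunit gene Cacng5. NMDA receptor subunits gave 7 models at or above a mean of 1 FPKM, of which Grin1 alone was called, and their median was 0.14. Grin2b, the GluN2B subunit of early and extrasynaptic receptors, had log2 folds of 0.14 (25.0 to 27.5 FPKM) and 0.52 (2.16 to 3.09 FPKM) in its assembled models. Grin2a, the GluN2A subunit of mature synapses, had 11.5 and 12.1 FPKM. Grin2c, which is made by astrocytes and cerebellar granule cells, had a log2 fold of -0.18 (19 and 16.7 FPKM). Grin2d had 5.36 and 5.19 FPKM, and a model that merges Grin3a with Ppp3r2 had 7.36 and 8.60 FPKM. Cuffdiff called 0 of 17 models of AMPA receptors and their auxiliary subunits, 0 of 9 of kainate and delta receptors, 0 of 7 of metabotropic glutamate receptors, 0 of 15 of postsynaptic scaffolds and 0 of 13 of CaM kinases and synaptic Ras regulators, and none of these lists had a member at an unadjusted p under 0.05. Their medians ran from 0.03 to 0.07. Over all models at or above a mean of 1 FPKM 0.806% were called, so lists this small could lack a call in any case. Cacng5, a related auxiliary subunit of AMPA receptors that this list did not hold, fell from 8.86 to 6.50 FPKM (log2 fold -0.45), and it was chosen after its value was seen. The highest fold in these lists, 1.09, was that of a weak second model of the scaffold gene Shank2 (0.683 to 1.45 FPKM), whose main model stood at 30.4 and 31.1 FPKM. Of 22 models of the release machinery 0 were called by Cuffdiff and 1 had an unadjusted p under 0.05, Stx1a, the plasma membrane SNARE syntaxin 1A, with 109 FPKM in GluN1 and 125 FPKM in GluN1Cre.

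Nos1, the neuronal nitric oxide synthase that is tethered to NMDA receptors by PSD-95, rose. It went from 6.43 to 8.63 FPKM, a log2 fold of 0.42 (q = 0.0118 in the authors' deposited table). Nos1 was the 1 called of 11 models of nitric oxide and cGMP signalling, whose median was 0.09. The soluble guanylyl cyclase subunits Gucy1a3 (21.2 and 23.5 FPKM) and Gucy1b3 (64.4 and 66.0 FPKM), which sense nitric oxide, and the calcium-dependent phosphodiesterase Pde1a (49.3 and 55.4 FPKM) were not called. In the tables with WT, Nos1 was at 6.16 and 6.41 FPKM in WT and GluN1, which was not called, and at 6.17 and 8.58 FPKM in WT and GluN1Cre, which was called higher. GluN1Cre was above both other groups by these calls, which share groups.

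Immediate early genes, the first transcripts that synaptic calcium induces, were not called in either direction. Arc, whose product acts in receptor internalisation at excitatory synapses, was at 20.2 FPKM in GluN1 and 20.8 FPKM in GluN1Cre. Against WT, Arc was called lower in GluN1 (32.1 to 20 FPKM) and in GluN1Cre (31.8 to 20.6 FPKM). The transcription factors Egr2 and Junb showed the same arrangement: Egr2 had a log2 fold of -0.12 here and of -0.78 and -0.91 for GluN1 and GluN1Cre over WT, and Junb stood at 21.8 and 20.5 FPKM here and was called lower than WT (30.6 FPKM) in both groups. These 3 genes were chosen after their values were seen. Over the 19 models of immediate early transcription factors and Arc the median was -0.05, Cuffdiff called 0, and 1 in each direction had an unadjusted p under 0.05: Jun (17.0 and 19.6 FPKM) and Nr4a2 (8.28 and 6.72 FPKM). Among 24 models of later activity-induced effectors 1 was called, the granin Scg2, and the neurotrophin Bdnf stood at 10.3 FPKM in both groups.

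Markers of the olfactory bulb, the forebrain region in front of the frontal cortex, fell. Of 18 models at or above a mean of 1 FPKM, 13 were called lower, 0 higher and 5 were not called, with a median of -0.72 and all 18 folds below 0. A further 2 tested models of the list lay below 1 FPKM. S100a5, a calcium-binding protein of olfactory neurons, had 15.9 FPKM in GluN1 and 7.05 FPKM in GluN1Cre (log2 fold -1.18). Shisa3 fell from 5.13 to 2.60 FPKM, Ms4a15 from 7.19 to 3.99 FPKM and Ush1g from 1.66 to 0.787 FPKM. Tbx21 and Eomes, transcription factors of the mitral and tufted projection cells of the bulb, went from 2.85 to 1.41 and from 5.43 to 3.07 FPKM. Th, the rate-limiting enzyme of dopamine synthesis and a marker of periglomerular cells, went from 12 to 7.02 FPKM. Cdhr1, a cadherin of mitral cells, went from 23.1 to 15.8 FPKM, and a model that merges Doc2g with Nudt8 from 33.0 to 21.0 FPKM. Pcp4, which the cortex also expresses strongly, was not called at 371 and 352 FPKM. Of the 18 models 8 belong to genes such as S100a5 and Shisa3. These genes were put on the list because earlier results on these mice were known. Of the other 10 models 7 fell, with a median of -0.60. The list as a whole was also drawn up with those results known, so these 10 models are no independent check. Against WT the bulb markers were high in GluN1 and less so in GluN1Cre: S100a5 was at 2.71 FPKM in WT and 16.8 FPKM in GluN1, and at 2.57 FPKM in WT and 6.94 FPKM in GluN1Cre. The comparison of GluN1 with WT uses the same GluN1 libraries, so high GluN1 values there are no independent support. How much bulb tissue each dissection held was not tested. In bulk tissue fewer cells of a type and less RNA per cell cannot be told apart, here and for every marker list that follows.

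Several peptide genes fell. Neuropeptides are stored in dense-core vesicles and mark particular interneurons and projection cells. Of 18 peptide models 4 were called lower and 0 higher, with a median of -0.15. Trh, the precursor of thyrotropin-releasing hormone, fell from 8.62 to 4.77 FPKM (log2 fold -0.86). Crh, the corticotropin-releasing hormone that cortical interneurons also make, fell from 10.7 to 6.51 FPKM (-0.72). Cartpt, the cocaine and amphetamine regulated transcript, fell from 11.5 to 7.45 FPKM (-0.63). Penk, the enkephalin precursor, fell from 55.2 to 43.1 FPKM (-0.36). Each of these 4 had q = 0.0118 in the authors' deposited table. Trh is also on the bulb list and Penk on the striatal list, so without members of those lists 2 of the calls are left, Crh and Cartpt. Only listed genes were taken out, and the part of bulb tissue in the values of Crh and Cartpt was not tested. The abundant interneuron peptides were not called: Sst stood at 452 and 408 FPKM, Npy at 187 and 168 FPKM, Vip at 26.2 and 25.9 FPKM and Cck at 561 and 565 FPKM.

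The 4 peptides differed in where WT lay. Trh and Crh were called higher than WT in both groups: Trh was at 2.92 FPKM in WT and 8.61 FPKM in GluN1, and at 2.96 FPKM in WT and 4.68 FPKM in GluN1Cre. Crh was at 4.28 and 10.5 FPKM in WT and GluN1, and at 4.26 and 6.27 FPKM in WT and GluN1Cre. Cartpt was not called against WT in either group (9.16 FPKM in WT and 11.9 FPKM in GluN1, 9.17 FPKM in WT and 7.67 FPKM in GluN1Cre). Penk was not called in GluN1 against WT (51.3 and 52.7 FPKM) but was called lower in GluN1Cre against WT (42.1 and 56.4 FPKM). The direct fall of Penk therefore accompanied a GluN1Cre level below WT, that of Trh and Crh a level above it.

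Of the peptide receptors 2 were called. Vipr2, a receptor of vasoactive intestinal peptide, fell from 1.95 to 1.23 FPKM (log2 fold -0.67). Rxfp1, the relaxin receptor, rose from 4.00 to 5.18 FPKM (0.37); it was put on the list with its value known and was lost at q under 0.05. The list held 23 models, and the median of the list was 0.00. Scg2, secretogranin II, was the 1 called of 14 models of granins and prohormone processing: it fell from 155 to 127 FPKM (-0.29). The granins Vgf (134 and 116 FPKM) and Chga (92.7 and 81.9 FPKM) had log2 folds of -0.20 and -0.18 and were not called, and the processing enzymes Cpe (1020 and 991 FPKM) and Pcsk2 (93.9 and 98.2 FPKM) lay close together in both groups.

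Interneuron genes shared the direction of the bulb list, with which they overlap. Of 23 models 3 were called lower, 0 higher, and 18 folds were below 0, with a median of -0.15. Calb2, calretinin, fell from 45.6 to 28.6 FPKM (log2 fold -0.67). Dlx2, a homeobox factor of the inhibitory lineage, fell from 5.81 to 3.88 FPKM (-0.58), and Sp8, a zinc finger factor of the same lineage, from 6.03 to 4.25 FPKM (-0.50). Dlx1 (20.9 and 15.8 FPKM) and Dlx5 (5.73 and 4.19 FPKM) had folds of -0.40 and -0.45 and were not called. Calb2 and Sp8 are also bulb markers, and without bulb and striatal members 1 call is left. Calb2, Dlx2 and Dlx1 are made by bulb interneurons as well as by cortical ones, and the part of bulb tissue in these values was not tested.

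Among genes of striatal medium spiny neurons, 1 of 14 models was called, Penk, and the median was -0.13. Drd2, the D2 dopamine receptor, had 1.71 FPKM in GluN1 and a log2 fold of -0.52 (q = 0.326 in the authors' deposited table). It was called lower than WT in both groups (2.70 FPKM in WT, 1.71 FPKM in GluN1 and 1.19 FPKM in GluN1Cre). Ppp1r1b (DARPP-32, 47.7 and 43.9 FPKM) and Drd1a (3.98 and 3.79 FPKM) were not called. Excitatory layer markers held 0 calls of 22 by Cuffdiff, with 2 in each direction at an unadjusted p under 0.05, and a median of 0.04; Fezf2, a layer 5 fate gene, had 9.43 and 11.1 FPKM.

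A number of genes induced by glucocorticoids fell, and none was called higher. The adrenal hormone binds the glucocorticoid receptor Nr3c1, which moves to the nucleus and raises a well-known set of targets. Of 24 target models at or above a mean of 1 FPKM, 8 were called lower, 0 higher and 16 were not called, and 22 of the 24 folds were below 0. The median was -0.28, beside -0.0043 over all models at that level. Plin4, a lipid droplet coat protein, fell from 3.40 to 1.75 FPKM (log2 fold -0.96). Fkbp5, the co-chaperone that feeds back on the receptor, fell from 17.2 to 11.9 FPKM (-0.53), Tsc22d3, the leucine zipper protein GILZ, from 42.5 to 30.9 FPKM (-0.46), and Hif3a, a hypoxia factor, from 2.92 to 1.97 FPKM (-0.56). Xdh, xanthine dehydrogenase, fell from 2.85 to 1.99 FPKM (-0.52), and Cdkn1a, the cell cycle inhibitor p21, from 16.2 to 11.9 FPKM (-0.44). The remaining 2 were the metallothioneins Mt2 and Mt1. A further 4 tested models of the list lay below 1 FPKM, and Plin4 and Hif3a were put on it with their values known.

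Other textbook targets of the receptor were not called. Sgk1, a kinase that hormone treatment raises within hours, stood at 24.3 and 24.2 FPKM, Zbtb16 at 12.9 and 12.7 FPKM, Ddit4 at 18.5 and 18.3 FPKM, Errfi1 at 9.53 and 9.60 FPKM and Per1 at 17.5 and 17.0 FPKM. Sult1a1 (5.36 and 3.87 FPKM), Arrdc2 (4.81 and 3.81 FPKM) and Gpd1 (38.0 and 33.1 FPKM) had folds of -0.47, -0.33 and -0.20 and were not called. The receptors and their chaperones were not called either: Nr3c1 was at 18.7 and 20.5 FPKM, Nr3c2, the mineralocorticoid receptor, at 7.22 and 7.42 FPKM, Hsp90ab1 at 507 and 521 FPKM, and the activating enzyme Hsd11b1 at 6.28 and 5.95 FPKM. Of 12 models of receptors and steroid handling, Fkbp5 was the 1 called, and the median was 0.04. Hormone levels were not analysed here.

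**Figure D2:**
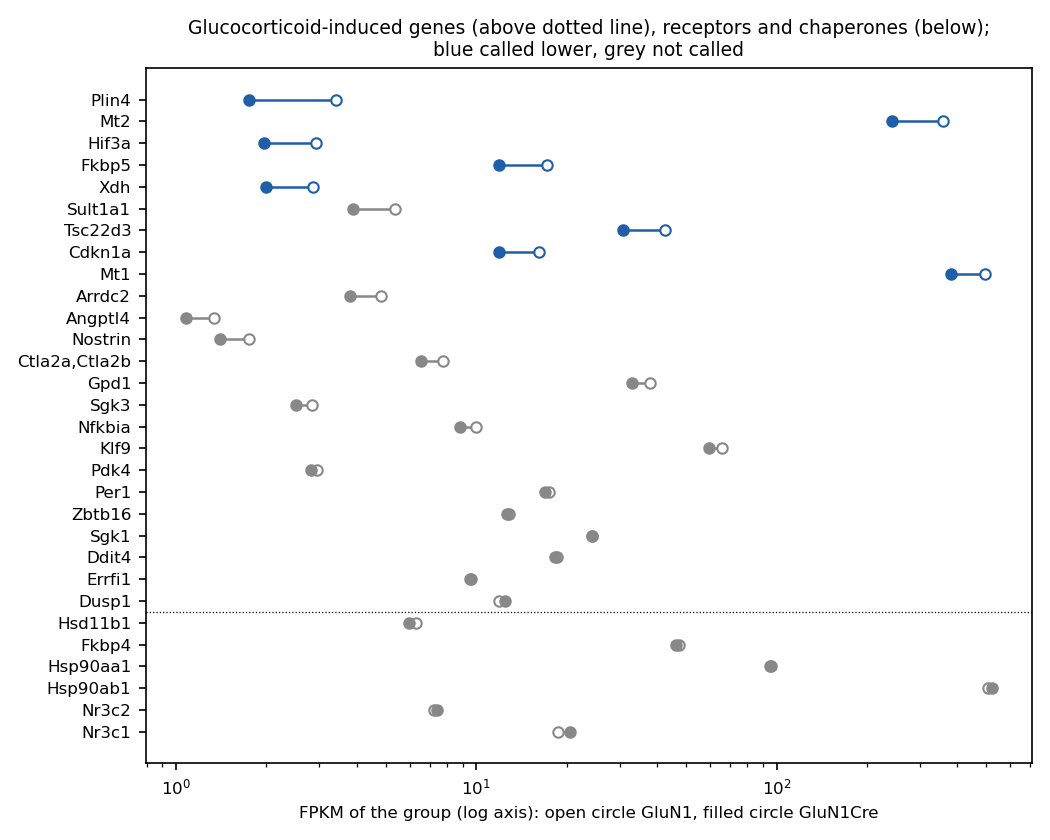
FPKM (x axis, logarithmic) of each glucocorticoid-induced gene with a mean of at least 1 FPKM, and below the dotted line of the receptors and chaperones, with an open circle for GluN1, a filled circle for GluN1Cre and a line joining them; blue marks models called lower and grey models not called. The 8 blue genes run from Plin4 at 3.40 and 1.75 FPKM to Mt1 at 495 and 380 FPKM, while Sgk1 and the receptor genes show little distance between their circles.

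For these targets the WT values lay between or near the groups. Fkbp5 was at 14.4 FPKM in WT beside 17.1 FPKM in GluN1, and at 14.3 FPKM in WT beside 11.7 FPKM in GluN1Cre, and neither comparison with WT was called. Tsc22d3 was at 36.5 FPKM in WT and 42.0 FPKM in GluN1, and at 36.7 FPKM in WT and 30.4 FPKM in GluN1Cre, again with no call. Mt2 was called higher in GluN1 (259 to 358 FPKM) and not called in GluN1Cre (260 and 240 FPKM). Mt1, Xdh and Cdkn1a gave the same calls as Mt2, with log2 folds of 0.28, 0.44 and 0.35 in GluN1 and of -0.12, -0.09 and -0.10 in GluN1Cre, both over WT.

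Metallothioneins, small cysteine-rich proteins that buffer zinc and copper, are induced by metals through the factor MTF1 as well as by glucocorticoids. Mt2 fell from 358 to 242 FPKM (log2 fold -0.57) and Mt1 from 495 to 380 FPKM (-0.38), each with q = 0.0118 in the authors' deposited table. Mt3, the neuronal form, which is not induced in this way, was not called at 391 and 346 FPKM. The promoters of the 3 genes lie within 1 cluster on chromosome 8 and are shown because the called genes and Mt3 differ in them. They are RefSeq sequences of build GRCm38.p6, from 250 bases before to 50 after the start, written 5′ to 3′, with matches to the metal response element core in capitals.
Mt2, chr8:94172368-94172667, plus strand: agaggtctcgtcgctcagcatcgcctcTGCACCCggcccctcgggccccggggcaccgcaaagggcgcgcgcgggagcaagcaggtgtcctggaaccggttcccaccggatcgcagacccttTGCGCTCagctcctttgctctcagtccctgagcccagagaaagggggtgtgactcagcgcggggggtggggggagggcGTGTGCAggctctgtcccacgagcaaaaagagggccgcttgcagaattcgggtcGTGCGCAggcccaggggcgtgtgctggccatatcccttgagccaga
Mt1, chr8:94178839-94179138, plus strand: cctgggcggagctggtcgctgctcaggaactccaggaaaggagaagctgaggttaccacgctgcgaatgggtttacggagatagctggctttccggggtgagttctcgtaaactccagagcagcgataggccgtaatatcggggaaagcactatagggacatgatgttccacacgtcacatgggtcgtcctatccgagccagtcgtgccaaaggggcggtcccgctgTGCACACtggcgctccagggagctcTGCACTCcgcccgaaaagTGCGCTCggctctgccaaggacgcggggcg
Mt3, chr8:94152357-94152656, plus strand: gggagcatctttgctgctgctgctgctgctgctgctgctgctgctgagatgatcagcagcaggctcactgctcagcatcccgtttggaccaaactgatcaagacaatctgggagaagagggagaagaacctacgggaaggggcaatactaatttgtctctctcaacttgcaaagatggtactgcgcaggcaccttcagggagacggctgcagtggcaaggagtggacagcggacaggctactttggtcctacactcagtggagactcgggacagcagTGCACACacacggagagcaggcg
The core was searched as TGCACNC or TGCGCNC on both strands, so that a match on the other strand reads in reverse complement. Mt2 held 4 matches, Mt1 3 and Mt3 1. Of 32817 RefSeq promoters 25.7% held at least 1 match, 1.97% at least 3 and 0.518% at least 4. A match is a string of letters and says nothing of whether a factor was bound. The core stood in 32.6% of promoters of genes called lower and in 9 of the 16 promoters of genes called higher (56.2%), Grin1 among them. The full palindrome of the glucocorticoid response element stood in 3 of the 32817 promoters (0.00914%) and in none of those of called genes. A string this rare could hardly be found in so few promoters, so its absence says nothing about the called genes. Among 14 models of metallothioneins and zinc transporters Mt1 and Mt2 were the 2 called, and the median was -0.02. The zinc exporter Slc30a1, another MTF1 target, had 10.8 and 10.7 FPKM, and Mtf1 itself 4.80 and 4.73 FPKM.

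Clock genes, some of which also respond to glucocorticoids, were not called. Of 20 models Cuffdiff called 0, 1 had an unadjusted p under 0.05 in the higher direction and 0 in the lower, and the median was 0.00. Arntl (BMAL1) was at 9.75 and 10.4 FPKM, Per2 at 7.57 and 7.13 FPKM, Nr1d1 at 50.1 and 47.0 FPKM, Dbp at 54.2 and 53.5 FPKM and Ciart, listed as Gm129, at 6.90 and 6.99 FPKM. Hlf, an output factor of the clock, had the highest fold of the list at 0.18 (38.6 and 43.8 FPKM).

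A cyclic AMP response element stood near the start of 5 genes called lower. This element, TGACGTCA, is read by CREB, the factor through which calcium and cyclic AMP act on transcription. Of the 100 symbols called lower 71 had a RefSeq promoter, giving 86 promoters, and 5 of these held the element on either strand (5.81%): Cartpt, Col24a1, Dio2, Scg2 and Th. The share among all 32817 promoters was 1.79%, and 0 of 16 promoters of genes called higher held it. At that share 16 promoters could hardly be relied on to hold the element. Its absence there says nothing about the genes called higher. Promoters of 4 of them follow in the same form, with the element in capitals, since they belong to genes from 3 of the groups described here (peptide secretion, bulb markers and astrocytes).
Scg2, chr1:79439977-79440276, minus strand: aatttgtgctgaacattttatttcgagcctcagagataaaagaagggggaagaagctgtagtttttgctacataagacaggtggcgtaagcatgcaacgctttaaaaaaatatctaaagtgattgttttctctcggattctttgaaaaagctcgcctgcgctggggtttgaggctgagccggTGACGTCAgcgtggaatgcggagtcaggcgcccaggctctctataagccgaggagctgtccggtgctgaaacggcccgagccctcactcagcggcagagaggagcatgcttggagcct
Cartpt, chr13:99900634-99900933, minus strand: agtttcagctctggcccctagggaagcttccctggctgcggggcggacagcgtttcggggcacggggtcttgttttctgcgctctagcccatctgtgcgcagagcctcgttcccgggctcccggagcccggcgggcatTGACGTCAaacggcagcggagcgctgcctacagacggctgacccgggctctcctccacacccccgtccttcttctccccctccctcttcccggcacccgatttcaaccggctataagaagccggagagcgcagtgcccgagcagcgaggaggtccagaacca
Th, chr7:142899946-142900245, minus strand: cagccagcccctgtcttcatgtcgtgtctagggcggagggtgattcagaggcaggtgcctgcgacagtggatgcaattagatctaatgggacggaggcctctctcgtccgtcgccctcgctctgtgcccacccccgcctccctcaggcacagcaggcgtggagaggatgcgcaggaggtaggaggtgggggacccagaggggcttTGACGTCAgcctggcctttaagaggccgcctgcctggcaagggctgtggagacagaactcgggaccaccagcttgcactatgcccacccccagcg
Dio2, chr12:90738989-90739288, minus strand: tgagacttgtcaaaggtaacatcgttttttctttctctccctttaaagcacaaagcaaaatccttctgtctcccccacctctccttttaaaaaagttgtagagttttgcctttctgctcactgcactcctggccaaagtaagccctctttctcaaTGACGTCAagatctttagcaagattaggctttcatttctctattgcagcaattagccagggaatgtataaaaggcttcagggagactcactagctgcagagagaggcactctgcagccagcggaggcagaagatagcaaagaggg
All 4 lie on the minus strand, and the sequences are written in the direction of transcription. The E-box CACGTG, searched in the same way, stood in 5.81% of promoters of genes called lower, in 2 of 16 promoters of genes called higher (12.5%, Arhgap15 and Grin1) and in 7.15% of all promoters. The 32817 promoters were not limited to tested genes. Whether CREB acts on the genes called lower was not tested.

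Astrocyte genes had folds below 0 throughout, and 2 were called. All 19 models at or above a mean of 1 FPKM had folds below 0, with a median of -0.16. Of these 2 were called and 9 had an unadjusted p under 0.05. Over all models at that level 0.806% were called and 3.74% had an unadjusted p under 0.05. Gfap, the intermediate filament that rises in reactive astrocytes, fell from 54.1 to 42.4 FPKM (log2 fold -0.35), and Gjb6, connexin 30, from 33.3 to 25.6 FPKM (-0.38). Glutamine synthetase Glul (641 and 565 FPKM), the glutamate transporters Slc1a2 (341 and 321 FPKM) and Slc1a3 (146 and 133 FPKM), the water channel Aqp4 (28.9 and 25.9 FPKM) and the potassium channel Kcnj10 (47.5 and 41.5 FPKM) were not called. In the tables with WT, Gfap was called higher in both groups, with 34.6 FPKM in WT beside 54.0 FPKM in GluN1 and 41.9 FPKM in GluN1Cre.

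Other called falls are also known from astrocytes, though the list did not hold them. Slc6a11, the GABA transporter GAT-3, fell from 58.5 to 47.2 FPKM (log2 fold -0.31) and was the 1 called of 19 models of GABA receptors and transporters, none of whose receptor subunits passed. Dio2, the deiodinase that makes active thyroid hormone, fell from 30 to 23.6 FPKM (-0.35). Fabp7, the brain fatty acid binding protein, fell from 69.6 to 55.9 FPKM (-0.32), Apod, apolipoprotein D, from 52.2 to 41.9 FPKM (-0.32), and Htra1, a secreted serine protease, from 101 to 80.2 FPKM (-0.33). Sdc4, the proteoglycan syndecan 4, fell from 28.0 to 21.7 FPKM (-0.37) and Lcat, the enzyme that esterifies cholesterol on lipoproteins, from 16.3 to 12.5 FPKM (-0.38). Agxt2l1, a phospholyase of ethanolamine phosphate, fell from 4.74 to 2.72 FPKM (-0.80). These genes, apart from Slc6a11 and Agxt2l1, are called models chosen after their values were seen. Myelin genes (17 models, median -0.06), oligodendrocyte precursor genes (12, median -0.08) and microglia and complement genes (14, median -0.01) held 0 calls by Cuffdiff, with 2, 1 and 0 members at an unadjusted p under 0.05, all lower.

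**Figure D3:**
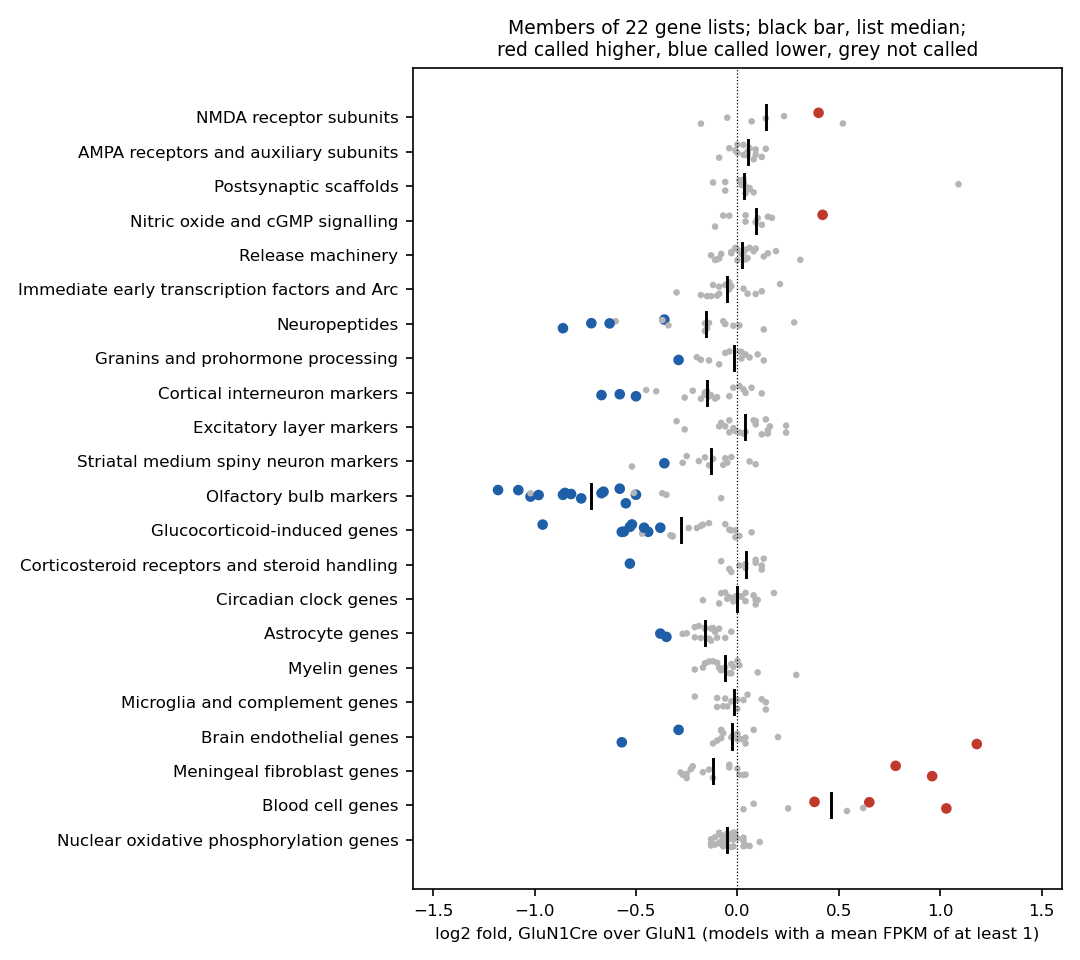
Log2 fold of GluN1Cre over GluN1 (x axis) for every tested model at or above a mean of 1 FPKM in 22 gene lists (rows), with red for called higher, blue for called lower, grey for not called and a black bar at each list's median. The bulb list (median -0.72) and the glucocorticoid list (-0.28) lie left of 0, blood cell genes lie right of it (0.46), and glutamate receptor and clock lists lie around it.

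Of 18 endothelial models 3 were called, 2 lower and 1 higher, beside 0.806% of all models at or above a mean of 1 FPKM. Mfsd2a, the endothelial transporter that carries docosahexaenoic acid into the brain, fell from 18.9 to 12.7 FPKM (log2 fold -0.57). Slc2a1, the glucose transporter GLUT1 of barrier endothelium, fell from 48.2 to 39.5 FPKM (-0.29). Gkn3, a gastrokine of arterial endothelium that was put on the list with its value known, rose from 0.846 to 1.92 FPKM (1.18). At q under 0.05 Mfsd2a was the 1 call left. The other 15 of the 18 endothelial models were not called and the median was -0.03: the tight junction gene Cldn5 had 26.9 and 25.4 FPKM, Pecam1 4.86 and 4.59 FPKM and Cdh5 2.97 FPKM in both groups. Mfsd2a and Slc2a1 were not called in either comparison with WT (Mfsd2a at 15.6 FPKM in WT, 18.8 FPKM in GluN1 and 12.6 FPKM in GluN1Cre). Gkn3 stood at 1.91 FPKM in WT, was called lower in GluN1 and not called in GluN1Cre (1.80 FPKM). Pericyte and smooth muscle genes held 0 calls of 13 by Cuffdiff, with 1 at an unadjusted p under 0.05, in the lower direction, and a median of -0.07.

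Haemoglobin transcripts rose. A model that merges Hba-a1 and Hba-a2 went from 30.2 to 47.4 FPKM (log2 fold 0.65), another model of the same genes from 10.4 to 21.3 FPKM (1.03), and Beta-s from 69.3 to 89.9 FPKM (0.38). These 3 were the called ones of 8 blood cell models, all of which had folds above 0, with a median of 0.46. The erythroid enzyme Alas2 had 2.41 and 2.86 FPKM, and the neutrophil genes S100a8 and S100a9 had 1.61 and 2.48 FPKM and 1.64 and 2.38 FPKM, with no call. The alpha globin genes are near-identical copies, so that the division of reads between their models is uncertain. How much blood each sample held was not tested. Among 17 meningeal fibroblast models 2 were called higher and the median was -0.12: Myoc, myocilin, went from 0.963 to 1.87 FPKM (0.96) and Adamts2, a procollagen protease, from 2.41 to 4.13 FPKM (0.78). The fibrillar collagens Col1a1 (2.38 and 2.12 FPKM) and Col1a2 (5.57 and 5.12 FPKM) and the matrix protein Fn1 (10.3 and 8.47 FPKM), which define these cells, were not called and lay on the other side of 0.

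Choroid plexus and ependymal genes were sparse. Of 6 models Aqp1, the water channel of choroid epithelium, fell from 2.24 to 1.54 FPKM (log2 fold -0.53) and Vwa3a rose from 1.38 to 1.97 FPKM (0.51), with a median of 0.00. The ependymal genes Foxj1 and Rsph1 had 1.32 and 1.10 FPKM and 1.79 and 1.77 FPKM. Gh, growth hormone of the pituitary, rose from 0.866 to 1.98 FPKM (1.19, q = 0.0219 in the authors' deposited table). In the tables with WT, Gh was at 0.0145 and 0.0139 FPKM in WT and was not called in either group. Its log2 folds over WT, 5.90 in GluN1 and 7.12 in GluN1Cre, were larger than the called 1.19. The hypothalamic hormones Avp (1.59 and 0.284 FPKM) and Oxt (0.744 and 0.120 FPKM), both chosen after their values were seen, were not called; WT held 0.312 FPKM of Avp. Whether these hormone transcripts came from tissue outside the cortex was not tested.

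The R-spondin receptors Lgr5 and Lgr6 fell and Lgr4 was not called. Lgr5 and Lgr6, which strengthen Wnt signalling and mark stem cells in many epithelia, went from 5.90 to 4.14 FPKM and from 3.88 to 2.73 FPKM, with a log2 fold of -0.51 each. Lgr4 was at 8.76 and 8.26 FPKM. They were the 2 called of 33 models of Wnt, BMP and insulin-like growth factor genes, with a median of -0.07. Axin2, a general readout of Wnt signalling that is merged with Ccdc46 here, had 6.38 and 6.55 FPKM, and the ligands Rspo2 (9.18 and 10.5 FPKM) and Rspo3 (6.97 and 6.62 FPKM) were not called. Lgr5 and Lgr6 were called higher than WT in both groups, Lgr5 with 2.62 FPKM in WT beside 6.05 FPKM in GluN1 and with 2.48 FPKM in WT beside 4.24 FPKM in GluN1Cre. Lgr5 is also made by bulb neurons, whose part in this value was not tested.

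Some of the most negative folds belonged to RNAs that poly(A) selection should remove. Rpph1, the RNA of RNase P, went from 7.39 to 1.41 FPKM (log2 fold -2.39), Rmrp, the RNA of RNase MRP, from 9.40 to 2.27 FPKM (-2.05), and Rn45s, the precursor of ribosomal RNA, from 1176 to 596 FPKM (-0.98). They were 3 of the 5 models on the list of RNAs without a poly(A) tail; the other 2 were models of Snhg11, which does not belong there because it is polyadenylated. In the tables with WT all 3 were called higher in GluN1 and not called in GluN1Cre: Rn45s was at 618 FPKM in WT and 1087 FPKM in GluN1, and at 661 FPKM in WT and 590 FPKM in GluN1Cre. Lars2, mitochondrial leucyl-tRNA synthetase, went from 106 to 58.9 FPKM (-0.85), Zc3h7a from 25.9 to 14.2 FPKM (-0.87) and 2610528E23Rik from 1554 to 750 FPKM (-1.05). All 3 were called higher in GluN1 than in WT, like Rn45s. For Zc3h7a the WT level itself was 17.4 FPKM in the table with GluN1 and 32.3 FPKM in the table with GluN1Cre, and a second model of the gene, at 7.56 and 8.22 FPKM, was not called. The part of ribosomal RNA carry-over in the GluN1 libraries was not tested.

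Besides Grin1 and Nos1, further named rises included genes of neurons. Miat, a long noncoding RNA of neurons, rose from 71.0 to 88.6 FPKM (log2 fold 0.32) and was the 1 called of 15 noncoding RNA models. Pak7, a p21-activated kinase of neurons, rose from 11.9 to 14.5 FPKM (0.29), Hrk, a BH3-only cell death protein, from 12.2 to 14.9 FPKM (0.29) and Spag5, a spindle protein, from 4.21 to 5.55 FPKM (0.40). Miat and Spag5 were called lower in GluN1 than in WT and not called in GluN1Cre: Miat was at 84.8 FPKM in WT beside 71.0 FPKM in GluN1, and at 84.4 FPKM in WT beside 88.1 FPKM in GluN1Cre. Rxfp1, Adamts2 and Beta-s had the other arrangement, with no call in GluN1 and a call above WT in GluN1Cre (Rxfp1 at 3.59 FPKM in WT and 5.19 FPKM in GluN1Cre). Adcy10, the soluble adenylyl cyclase, and Arhgap15 rose at levels below 1 FPKM (0.65 and 0.69). The rise with the largest fold among named genes was that of 1 of the 2 models of Rplp2, a ribosomal stalk protein, from 2.67 to 41.6 FPKM (3.96). Its other model was at 0.705 and 0.646 FPKM, and the called model was at 3.70 FPKM in WT. The remaining 38 of 39 ribosomal protein models were not called, and the median was -0.02.

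**Figure D4:**
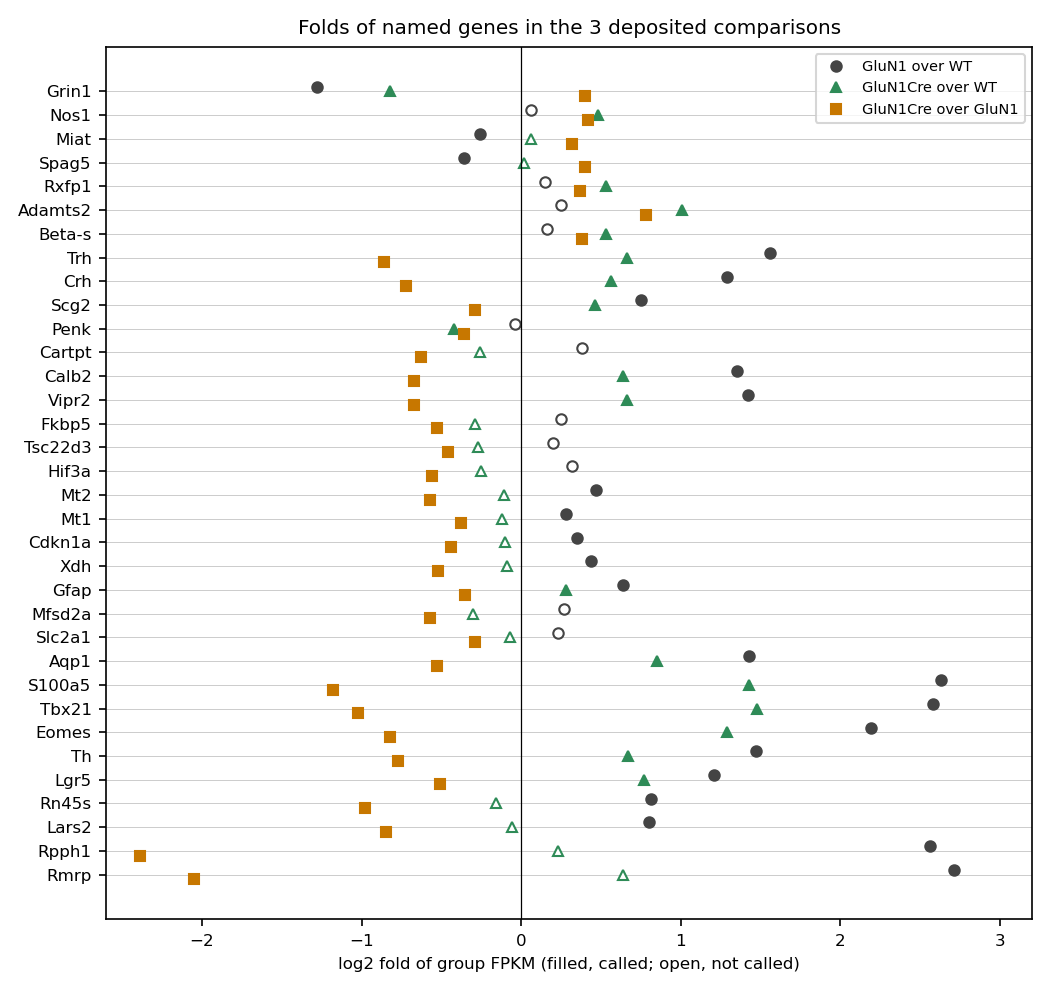
Log2 folds (x axis) of named genes (rows) in GluN1 over WT (grey circles), GluN1Cre over WT (green triangles) and GluN1Cre over GluN1 (orange squares), filled where called. The 3 comparisons share groups and were normalised separately, so their symbols in a row are not independent; Trh, Calb2 and S100a5 lie above 0 in both comparisons with WT, Fkbp5, Mt2 and Mfsd2a lie on either side of it, and Grin1 lies below it in both.

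Further genes were called lower. Nnt, the mitochondrial transhydrogenase that makes NADPH, fell from 9.16 to 7.25 FPKM (log2 fold -0.34), Rapgef3, the cyclic AMP sensor EPAC1, from 10.4 to 8.32 FPKM (-0.32), and Sepp1, the selenium carrier selenoprotein P, from 104 to 84.9 FPKM (-0.30). Npr1, the receptor of atrial natriuretic peptide, fell from 2.52 to 1.74 FPKM (-0.54) and Spp1, osteopontin, from 8.15 to 5.21 FPKM (-0.65). Meis1 and Pbx3, partner homeodomain factors, fell from 1.91 to 1.33 FPKM (-0.52) and from 16.1 to 11.5 FPKM (-0.49). All but Spp1 were chosen after their values were seen. The remaining falls among the 30 with the largest folds lay at low levels. Klhl30 went from 1.42 to 0.671 FPKM (-1.08), Baiap2l2 from 2.28 to 1.36 FPKM (-0.74), Gatsl3 from 2.42 to 1.46 FPKM (-0.73) and Slc25a13, a mitochondrial aspartate and glutamate carrier, to 0.844 FPKM (-0.68). Tmem90a, Sp7, Rab37, Frmd7 and 2010002N04Rik had GluN1 levels of 2.24 to 6.61 FPKM and folds of -0.61 to -0.65.

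Many systems held no call by Cuffdiff. For potassium channels this was 0 of 38 models (3 at an unadjusted p under 0.05), for sodium, calcium and HCN channels 0 of 28 (1), for monoamine receptors and transporters 0 of 22 (0) and for acetylcholine receptors 0 of 7 (0). Their medians ran from 0.02 to 0.07. Perineuronal net genes had 0 of 10 (1), interferon and MHC class I genes 0 of 14 (0), collagen, laminin and integrin genes 0 of 24 (2), and ferritin and iron genes 0 of 13 (2). Endoplasmic reticulum chaperones had 0 of 26 (0), cholesterol synthesis genes 0 of 22 (0), proteasome subunits 0 of 31 (0) and thalamic and hypothalamic markers 0 of 7 (0). Nuclear genes of oxidative phosphorylation had 0 of 41 (0), with 34 folds below 0, all between -0.13 and 0.11, and a median of -0.05. Neuroblast and cell division genes had 1 call in each direction among 17, Spag5 and Dlx2. Over all models at or above a mean of 1 FPKM 0.806% were called and 3.74% had an unadjusted p under 0.05. Lists of these sizes could therefore lack a call in any case. A missing call in these lists does not show that the groups were alike. The smallest called change at a mean FPKM of at least 1 was 1.21 times, and larger changes also went uncalled. On the bulb list, Kcnk15 was not called at 2.01 FPKM in GluN1 and 0.991 FPKM in GluN1Cre.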

How the data were processed

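Frontal cortex RNA of 12 mice in 3 groups of 4 was compared by the authors in 3 Cuffdiff tables, each for a pair of groups. Tools named in the submitters' processing notes are Cuffdiff 2.2.1.3, Cufflinks 2.2.1.0, TopHat2 2.1.0, TopHat and FastQC 0.65, with the builds GRCm38 and mm10. The threshold is that of the series' design text. Per the file headers, the deposited values are 1 FPKM per group and gene model, the log2 fold, the test statistic (a score), the q-value and the p-value that the authors obtained from Cuffdiff. Strandedness is not given in the sources used here, so reads of overlapping and antisense genes cannot be told apart.

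The table of GluN1Cre against GluN1 carried spreadsheet damage: 498 folds were unreadable (1 of them in a tested row) and 27 symbols had turned into dates, which were restored from overlapping models of the other tables. Benjamini-Hochberg values recomputed over tested models lay within 5.05e-07 of the deposited q-values. Of the tested models 14543 had 1 symbol, 515 several and 3372 none. Log2 folds were recomputed from the FPKM values with Python 3.11.15, numpy 2.4.6 and pandas 2.3.3, and the steps were tested on simulated data. Models were matched across tables by symbols, overlapping locus and an FPKM of the shared group within 1.5 times.

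The members and the 50 gene lists were chosen with earlier results of these data known; Gkn3, Myoc, Adamts2, Vwa3a, Aqp1, Gh, Rxfp1, Spag5, Lgr5, Lgr6, Plin4, Hif3a and some bulb genes were put on lists for their values, so their calls are no support for those lists. The naming rule took the NMDA receptor subunits. It took called rises and the 30 largest called falls with 1 symbol and a mean FPKM of at least 1. From each list it took up to 6 called and 3 uncalled members. Where a list held no call, up to 6 uncalled members were taken. From the clock, metallothionein, glucocorticoid, corticosteroid receptor and granin lists any member could be named. All other genes named were chosen after their values were seen. Alternatives were other thresholds and filters, centring, a pseudocount of 1, p from the test statistic, and leaving out genes on the bulb and striatal lists. Promoters came from RefSeq (GRCm38.p6). Those on chromosome 18 were left out for called genes, and the shares over all promoters had no such filter.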

Additional observations from a re-analysis of the deposited data

How the results depend on the processing

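Beside 127 calls as reported, the count was 103 at q under 0.05 and 114 with q recomputed at a mean FPKM of at least 1. It was 113 at an absolute log2 fold of at least 0.32, 102 over genes with a single model and symbol and 127 after centring. Without the genes on the bulb and striatal lists it was 113. With p from the deposited test statistic, read as a normal score, 15 were called, 6 higher and 9 lower. Rises were thus 6 of 15, beside 24 of 127, and 3 models have no statistic. Called rises numbered 13 over genes with a single model and symbol. Of 70 list counts compared 5 moved by over 1.5 times. At q under 0.05, the neuropeptide receptor, endothelial and choroid plexus lists held 1 call each, and without bulb and striatal members, a setting chosen after seeing the data, neuropeptides held 2 and interneuron markers 1. Grin1 had a log2 fold of 0.39 with a pseudocount of 1. Of 124 called models with a finite fold 0 turned direction with the pseudocount or centring, and the pseudocount shrank 35 by over 1.5 times. The cause of these shifts was not tested. No paired analysis was possible because the tables hold 1 FPKM per group and no column per animal, and no animal could be left out for the same reason. Depth is unknown, so precision at low FPKM cannot be given.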

Other observations

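A few unnamed models were called within Snhg14, the long antisense host transcript of snoRNA clusters beside the imprinted gene Ube3a. Of 49 tested there, 4 were called higher and 0 lower, beside 0.13% and 0.559% of all tested models. Snhg14 lies on the minus strand of chromosome 7 (GENCODE M21 on GRCm38, 59307924 to 59975759). Of the 6 unnamed models called higher 4 lay within it, in a stretch of 30959 bases at chr7:59390761-59421719. Their FPKM went from 0 to 24.5, from 0.244 to 1.58, from 0 to 1.41 and from 0.0824 to 0.503, so that 2 were listed at 0 in GluN1. In GluN1 against WT all 9 tested models of the stretch were lower in GluN1 and 2 were called. The stretch was bounded by the 4 models called here, and both comparisons use the same GluN1 libraries. Low GluN1 values there are therefore no independent support. In GluN1Cre against WT 4 of 7 were higher, 3 lower and 0 called by Cuffdiff. Over the whole of Snhg14, 49 unnamed models were tested, 27 higher and 22 lower in GluN1Cre, with log2 folds from -2.36 to 2.69 where finite. Some of these short models had very high FPKM and opposite directions: 3250 FPKM in GluN1 and 631 FPKM in GluN1Cre at chr7:59466430-59466560, and 1041 FPKM and 2498 FPKM at chr7:59353421-59353551, neither of them called. Of the 15 models called from the deposited test statistic 9 were unnamed models within Snhg14. Ube3a, the neighbour on the other strand, was at 15.0 and 15.1 FPKM.

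An unnamed model at chr4:14231190-14232083 went from 0.683 FPKM in GluN1 to 0 FPKM in GluN1Cre, with 1.97 FPKM in WT beside GluN1Cre, and was called in all 3 tables. An unnamed model at chrY:90737464-90740968 rose to 3.39 FPKM in GluN1Cre (log2 fold 0.62). It was the 1 called of 6 tested models on that chromosome, in mice that were all male.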
